A study of Mus musculus with 12 samples.

Results

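The genes described here encode the SR proteins and the hnRNP proteins, which are the main families of splicing regulators. They were taken as all protein-coding genes whose symbol starts with Srsf or Hnrnp, leaving out pseudogene names with -ps, which gave 31 of the 45321 genes in the tables: 11 Srsf genes and 20 Hnrnp genes. The cells were total CD4+ T cells from spleens of C57BL/6 mice, purified untouched, that is, by removing the other cells. The 4 treatments had 3 libraries each, and all cells were first held for 1 h in vehicle or drug. The ethanol_US cells had ethanol and no stimulus, and the CsA_US cells had 1 µM cyclosporin A (CsA) and no stimulus. The ethanol_PI cells had ethanol and then 10 nM PMA with 1 µM ionomycin for 2 h, and the CsA_PI cells had CsA and then the same stimulus. The labels do not say whether the libraries of a group came from separate mice. The p-values therefore rest on library-to-library spread alone, which may be technical. In bulk RNA, a change in the number of cells of a type and a change in the RNA per cell cannot be told apart.

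SR proteins carry an RNA recognition motif and a tail rich in arginine and serine, bind exonic enhancers and mostly favour inclusion of exons. hnRNP proteins coat nascent RNA, often favour skipping, and several also act in export, stability and translation. Many SR genes hold a poison exon, a stretch with an early stop codon whose inclusion sends the transcript to nonsense-mediated decay (NMD), and the SR proteins use it to limit their own level. In T cells, PMA stands in for diacylglycerol and turns on protein kinase C, and ionomycin lets calcium in. CsA blocks calcineurin, the calcium-driven phosphatase that sends NFAT to the nucleus.

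The depth was 10523816 to 18468044 estimated counts per library, all 31 genes passed the filter on low counts, and 14398 genes were tested. One library stood apart: the library labelled CsA_PI 2 had 2.59 CPM (counts scaled to library size) of Il2, the T cell growth factor gene, against 25.4 and 23.3 in CsA_PI 1 and 3, 2078, 1817 and 1759 in ethanol_PI and 2.26, 2.42 and 1.16 in ethanol_US. By that gene it lay with the unstimulated libraries. Whether it received the stimulus its label gives cannot be told from the files, so each value over all 12 libraries that involves CsA_PI rests on the label as given. Its levels are printed apart, and counts of calls that involve CsA_PI are also given without it. The 6 T cell markers (Cd3d, Cd3e, Cd3g, Cd4, Cd28, Trbc2), of which only Cd4 is particular to CD4 cells, summed to 1735 to 3006 CPM. Cd4 alone had 198 to 448 CPM. The sum was 1735 to 1865 CPM in ethanol_PI and 2236 to 3006 in CsA_PI. Cd28 had 256, 217 and 251 CPM in ethanol_PI and 895 and 893 in CsA_PI 1 and 3. The CD8 markers Cd8a and Cd8b1 summed to 26.4 to 27.9 CPM in replicate 2 of each group and to 5.46 to 16.1 CPM in the others, and Cd8a was at 0 in ethanol_PI 3. The 5 B cell markers summed to 301 to 910.5 CPM in replicate 2 of each group and to 64.5 to 147 CPM in replicates 1 and 3. The 5 myeloid markers summed to 154 to 173 and 29.3 to 52.4 CPM in the same sets, the 3 NK markers to 46.1 to 110.4 CPM and the 3 erythroid markers to 3.45 to 85.1 CPM over all libraries, and no marker was at 0 in all 12. The part of these other cells in the results was not tested.

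Stretches of the non-coding SR transcripts that the results below describe are shown first. They were read from GENCODE M21 transcripts on GRCm38, the assembly also called mm10, and are on the plus strand. Srsf6-201 holds a poison exon of 268 bases at chr2:162932815-162933082, shown from its first base to the stop codon in capitals at chr2:162932815-162932966. The main coding transcript Srsf6-203 has none of these bases. The listed transcript Srsf6-202, annotated as coding and with 0.0218% of the counts of Srsf6, has 165 bases of the exon, the 152 shown among them. Srsf3-201 holds one of 456 bases at chr17:29039454-29039909, shown to its stop at chr17:29039454-29039487. Srsf5-212 keeps an intron of 1229 bases at chr12:80947866-80949094, whose first bases (chr12:80947846-80947905) and last bases (chr12:80949055-80949114) are shown with the flanking exons, the splice site pairs being in capitals.
Srsf6-201 poison exon to its stop: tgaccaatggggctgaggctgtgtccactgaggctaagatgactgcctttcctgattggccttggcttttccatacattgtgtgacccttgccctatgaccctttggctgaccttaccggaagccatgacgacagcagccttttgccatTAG
Srsf3-201 poison exon to its stop: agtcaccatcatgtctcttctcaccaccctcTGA
Srsf5-212 retained intron start: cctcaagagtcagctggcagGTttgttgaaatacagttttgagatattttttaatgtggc
Srsf5-212 retained intron end: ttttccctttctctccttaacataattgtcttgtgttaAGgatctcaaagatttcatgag

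Levels of different genes were compared as TPM, which is scaled for transcript length. Hnrnpk, which binds C-rich RNA, had the highest mean TPM of the 31 genes, with 2635, 2347 and 3381 TPM in ethanol_US. Hnrnpf, which binds G-rich RNA, was next with 1339, 1315 and 1381, and every ethanol_US value of Hnrnpk exceeded those of Hnrnpf. Srsf2, the SR protein once called SC35, was the highest Srsf gene with 792, 446 and 1004 TPM in ethanol_US, and Srsf5 was the next Srsf gene with 493, 517 and 532. The ethanol_US values of Srsf2 and Srsf5 overlapped, so their order does not exceed the spread. Srsf3, with 198, 337 and 208 TPM, and Hnrnpu, with 198, 168 and 364, also overlapped in ethanol_US. At the other end stood Srsf12, with 0.204 to 3.02 TPM over all 12 libraries, and Hnrnpul2, with 1.48 to 5.28.

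**Figure D1:**
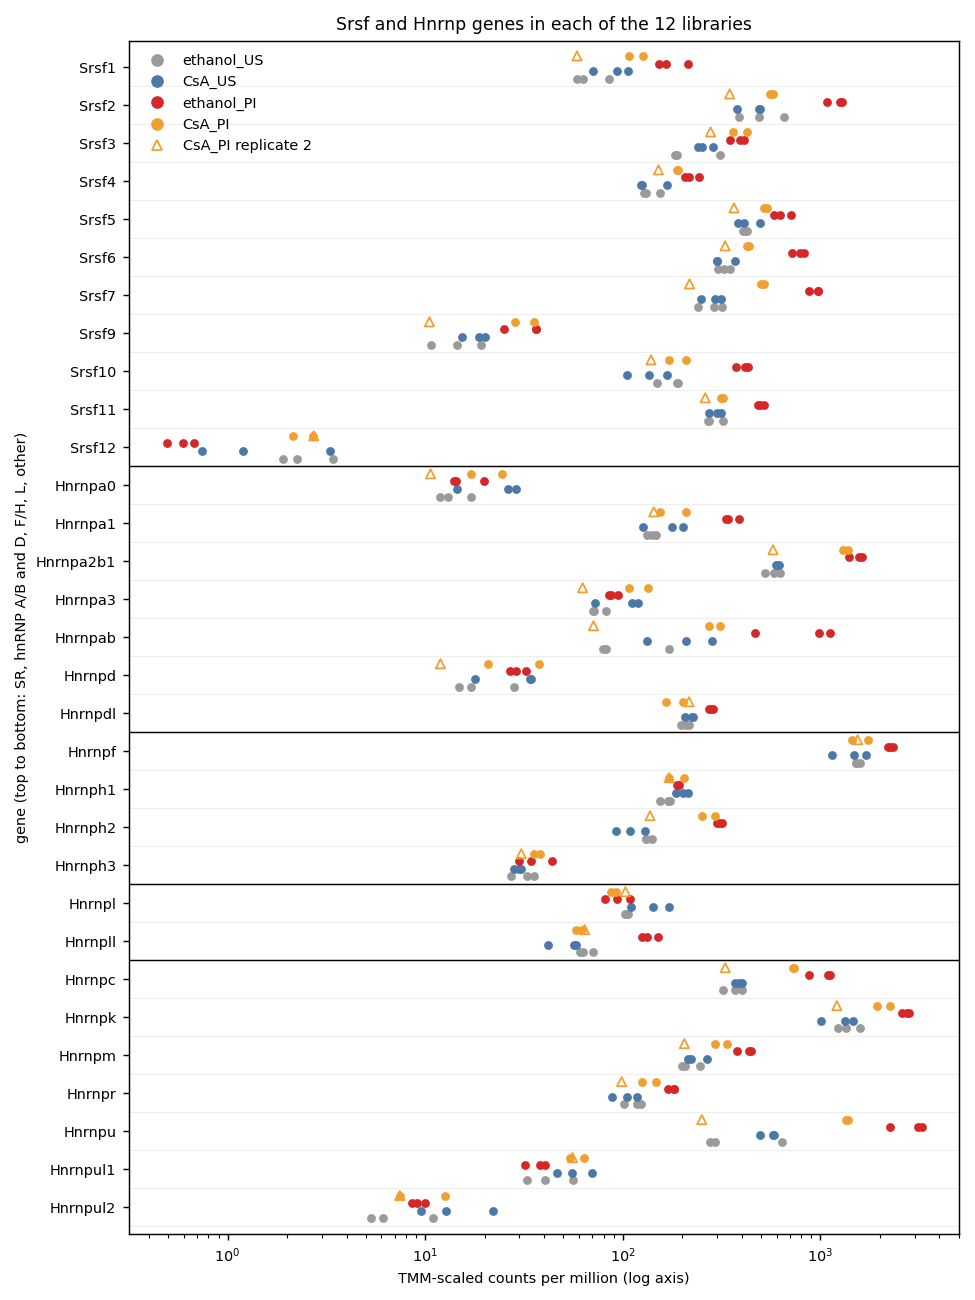
Level of each of the 31 genes in each of the 12 libraries, in TMM-scaled CPM on a log axis; each point is 1 library and colours are the 4 groups, with the library labelled CsA_PI 2 as an open triangle. The red ethanol_PI points of Srsf7 lie above the grey ethanol_US points, and the triangle of Hnrnpu at 251 CPM lies apart from CsA_PI 1 and 3.

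In vehicle-treated cells, stimulation raised the transcripts of most of these genes: 22 of 31 (71.0%) rose, 1 fell and 8 passed no test. Over all genes tested, 20.1% rose and 19.7% fell, and of those averaging 10 CPM or more 29.5% rose. The call was an adjusted p under 0.05 in edgeR's quasi-likelihood test with Benjamini-Hochberg adjustment over all genes. The median log2 fold change was 0.79 over the 31 genes and -0.02 over all genes. Of the 11 SR genes 10 rose and Srsf12 fell. The 20 hnRNP genes split into 12 that rose and 8 without a call. The same 23 genes were called without CsA_PI 2. The counts depend on the scale: TMM scaling sets the bulk of genes level. With library totals in its place the median over all genes was -0.63, and of all 14398 genes 1580 were higher and 5437 lower. On that scale 11 of the 31 genes were higher and 4 lower (Hnrnph1, Hnrnpl, Hnrnpul1 and Srsf12). The 11 were Hnrnpa1, Hnrnpa2b1, Hnrnpab, Hnrnpc, Hnrnph2, Hnrnpu, Srsf1, Srsf10, Srsf2, Srsf6 and Srsf7. Hnrnpdl and Hnrnpf changed sign on that scale, as did Hnrnpa0, Hnrnpa3, Hnrnpd, Hnrnph1, Hnrnph3 and Hnrnpul2, which had no call on the TMM scale.

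Among the SR genes, Srsf7 (chromosome 17, 80200080 to 80207307, minus strand), which carries a zinc knuckle beside its RNA recognition motif, rose most. Its levels were 289.5, 241 and 316 CPM in ethanol_US, 293, 247 and 314 in CsA_US, 976, 879.6 and 969.7 in ethanol_PI, 498 and 520.3 in CsA_PI 1 and 3, and 218 in CsA_PI 2, and every ethanol_PI library lay above every other library. Its log2 fold change in vehicle cells was 1.74 ± 0.28 (SE, edgeR adjusted p = 0.000431). Srsf1 (chromosome 11, 88047373 to 88053755, plus strand), the SR protein once called SF2/ASF, stood at 62.9, 58.7 and 85.2 CPM in ethanol_US, 70.7, 93.2 and 107 in CsA_US, 165, 153 and 213 in ethanol_PI, 126 and 107 in CsA_PI 1 and 3, and 58.6 in CsA_PI 2, and its log2 fold change was 1.36 ± 0.27 (SE, edgeR adjusted p = 0.00194). For Srsf6 (chromosome 2, 162931528 to 162937121, plus strand), once called SRp55, the levels were 325, 347 and 302 CPM in ethanol_US, 369.8, 300.01 and 301 in CsA_US, 829, 790.2 and 718 in ethanol_PI, 426 and 434 in CsA_PI 1 and 3, and 329 in CsA_PI 2, and the log2 fold change was 1.26 ± 0.17 (SE, edgeR adjusted p = 0.000128). In all of these genes CsA_PI 2 was within or below the range of the ethanol_US libraries, while CsA_PI 1 and 3 lay between the unstimulated and the ethanol_PI libraries.

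Srsf2 (chromosome 11, 116849901 to 116853094, minus strand) stood at 491, 385 and 657 CPM in ethanol_US, 496, 379 and 491 in CsA_US, 1281, 1083 and 1257 in ethanol_PI, 576 and 554 in CsA_PI 1 and 3, and 347 in CsA_PI 2, and its log2 fold change was 1.24 ± 0.24 (SE, edgeR adjusted p = 0.00171). Srsf10, which represses splicing when dephosphorylated by heat shock, stood at 190.3, 149.6 and 188 CPM in ethanol_US, 167, 105 and 135 in CsA_US, 372, 414 and 429.5 in ethanol_PI, 170.3 and 208 in CsA_PI 1 and 3, and 139 in CsA_PI 2, and it rose by 1.20 ± 0.21 log2. In both genes the ethanol_PI libraries were on top and overlapped no other group. Srsf9, once called SRp30c, stood at 10.7, 14.6 and 19.2 CPM in ethanol_US, 15.4, 20.1 and 18.8 in CsA_US, 36.2, 25.03 and 36.5 in ethanol_PI, 35.5 and 28.5 in CsA_PI 1 and 3, and 10.5 in CsA_PI 2. It rose by 1.14 ± 0.37 log2, and its CsA_PI 1 and 3 libraries lay in the ethanol_PI range. Srsf11, which interacts with splice site factors, stood at 271, 272 and 322 CPM in ethanol_US, 314, 273 and 301 in CsA_US, 481, 496 and 520.2 in ethanol_PI, 315 and 320.4 in CsA_PI 1 and 3, and 261 in CsA_PI 2. It rose by 0.79 ± 0.15 log2, and no CsA_PI library reached the ethanol_PI range.

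Srsf3, Srsf4 and Srsf5 showed smaller rises. Srsf3, the smallest SR protein and a link to RNA export, stood at 183, 312 and 187 CPM in ethanol_US, 252, 286 and 239 in CsA_US, 392, 408 and 350.4 in ethanol_PI, 423 and 360.5 in CsA_PI 1 and 3, and 278 in CsA_PI 2, with a log2 fold change of 0.75 ± 0.23. Srsf4, once called SRp75, stood at 128, 153 and 132 CPM in ethanol_US, 168, 124 and 125 in CsA_US, 243, 205 and 217 in ethanol_PI, 188 and 191 in CsA_PI 1 and 3, and 151 in CsA_PI 2, with a log2 fold change of 0.69 ± 0.17. For Srsf5 (chromosome 12, 80945504 to 80950507, plus strand), once called SRp40, the levels were 404, 423 and 414 CPM in ethanol_US, 496, 381 and 413 in CsA_US, 710.5, 579.7 and 627 in ethanol_PI, 537 and 519 in CsA_PI 1 and 3, and 365 in CsA_PI 2, and the log2 fold change was 0.63 ± 0.19. None of these genes was called by edgeR with library totals in place of TMM, where Srsf5 stood at 0.01 log2, Srsf4 at 0.08 and Srsf3 at 0.15.

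Srsf12, an SR repressor once called SRrp35, went the other way. It has the lowest CPM of the 31 genes, with 34, 38 and 59 estimated counts in ethanol_US, 70, 12 and 16 in CsA_US, 5, 7 and 4 in ethanol_PI, 34 and 22 in CsA_PI 1 and 3, and 39.7 in CsA_PI 2. All ethanol_PI libraries lay below all others. Its log2 fold change in vehicle cells was -2.08 ± 0.56 (SE, edgeR adjusted p = 0.0105).

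The largest rise among the 31 genes was that of Hnrnpab (chromosome 11, 51600100 to 51606847, minus strand), a relative of the hnRNP A/B and D proteins also known from mRNA transport. Its levels were 81.96, 78.96 and 171 CPM in ethanol_US, 133, 208 and 281 in CsA_US, 982, 466 and 1116 in ethanol_PI, 309.98 and 275 in CsA_PI 1 and 3, and 71.04 in CsA_PI 2. The ethanol_PI libraries spread widely, with replicate 2 the lowest, and still lay above all others. The log2 fold change in vehicle cells was 2.95 ± 0.57 (SE, edgeR adjusted p = 0.00209). Hnrnpa2b1, an A/B protein that binds exon and export signals, stood at 526, 621 and 580.1 CPM in ethanol_US, 602, 615 and 596 in CsA_US, 1566, 1397 and 1619.7 in ethanol_PI, 1295 and 1386 in CsA_PI 1 and 3, and 575 in CsA_PI 2. It rose by 1.41 ± 0.27 log2, and CsA_PI 1 and 3 came close to ethanol_PI. Hnrnpa1, a splicing repressor, stood at 133, 141 and 147 CPM in ethanol_US, 126, 203 and 178 in CsA_US, 389, 333 and 342 in ethanol_PI, 209 and 155 in CsA_PI 1 and 3, and 143 in CsA_PI 2. It rose by 1.34 ± 0.20 log2, and its CsA_PI libraries overlapped the unstimulated ones. Hnrnpdl, a close relative of Hnrnpd, stood at 217, 208 and 197 CPM in ethanol_US, 223, 226 and 205 in CsA_US, 271, 286 and 278 in ethanol_PI, 201 and 165 in CsA_PI 1 and 3, and 216 in CsA_PI 2, and its rise of 0.43 ± 0.15 log2 was the smallest called.

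Hnrnpa0, Hnrnpa3 and Hnrnpd, the other genes of that group, ranged over 10.6 to 28.9, 62.6 to 134 and 11.9 to 37.7 CPM in the 12 libraries. They passed no test in vehicle cells, with log2 fold changes of 0.20, 0.25 and 0.55.

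In the F/H group, whose proteins bind runs of G, 2 of 4 genes rose. Hnrnph2, on the X chromosome, stood at 141, 131 and 130.3 CPM in ethanol_US, 129, 91.8 and 109 in CsA_US, 317, 298 and 308 in ethanol_PI, 251 and 294 in CsA_PI 1 and 3, and 137 in CsA_PI 2, and its log2 fold change was 1.20 ± 0.24 (SE, edgeR adjusted p = 0.00178). Its CsA_PI 1 and 3 libraries lay below ethanol_PI and far above CsA_US. Hnrnpf stood at 1579, 1512 and 1516 CPM in ethanol_US, 1697, 1145 and 1471 in CsA_US, 2330.1, 2242 and 2198 in ethanol_PI, 1443 and 1738 in CsA_PI 1 and 3, and 1541 in CsA_PI 2. It rose by 0.56 ± 0.18 log2, and all 3 CsA_PI libraries lay below ethanol_PI. Hnrnph1 (154 to 214 CPM) and Hnrnph3 (27.1 to 43.6 CPM) had no call, at 0.19 and 0.17 log2.

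Hnrnpll (chromosome 17, 80029487 to 80062334, minus strand) is known for directing the exon choice of the phosphatase gene Ptprc (CD45) in activated T cells. Its levels were 60.7, 62.6 and 70.97 CPM in ethanol_US, 57.8, 41.6 and 56.3 in CsA_US, 125, 133 and 150.4 in ethanol_PI, 57.7 and 62.4 in CsA_PI 1 and 3, and 64.1 in CsA_PI 2, and its log2 fold change in vehicle cells was 1.07 ± 0.16 (SE, edgeR adjusted p = 0.000297). No library outside ethanol_PI exceeded 70.97 CPM. Its paralog Hnrnpl, which binds CA-rich RNA, stood at 103, 105 and 107 CPM in ethanol_US, 111, 172 and 142 in CsA_US, 93.1, 81.5 and 109 in ethanol_PI, 91.9 and 86.7 in CsA_PI 1 and 3, and 103 in CsA_PI 2, with -0.15 ± 0.18 log2 and no call. Whether these fold changes differ from each other was not tested.

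Hnrnpu (chromosome 1, 178321108 to 178337797, minus strand), the scaffold attachment factor SAF-A, stood at 294, 277 and 638 CPM in ethanol_US, 579.8, 492 and 572 in CsA_US, 3252, 2241 and 3123 in ethanol_PI, 1348 and 1375 in CsA_PI 1 and 3, and 251 in CsA_PI 2. It rose by 2.83 ± 0.55 (SE, edgeR adjusted p = 0.00190) log2, which only Hnrnpab exceeded among the 31 genes. Hnrnpc, which binds runs of U in nascent RNA, stood at 323, 368 and 401 CPM in ethanol_US, 388, 371 and 403 in CsA_US, 1124, 876 and 1096 in ethanol_PI, 736 and 724 in CsA_PI 1 and 3, and 329.9 in CsA_PI 2, and it rose by 1.50 ± 0.27 log2. In both genes CsA_PI 1 and 3 lay between the unstimulated and the ethanol_PI libraries. Hnrnpk stood at 1354, 1220.4 and 1592 CPM in ethanol_US, 1456, 1009 and 1327 in CsA_US, 2817, 2575 and 2747 in ethanol_PI, 1943 and 2254 in CsA_PI 1 and 3, and 1210.3 in CsA_PI 2, and it rose by 0.97 ± 0.24 log2.

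Hnrnpm, which binds GU-rich sites, stood at 205, 199 and 245 CPM in ethanol_US, 222, 213 and 265 in CsA_US, 434, 377 and 447 in ethanol_PI, 291 and 335 in CsA_PI 1 and 3, and 205 in CsA_PI 2, and it rose by 0.95 ± 0.20 log2. Hnrnpr, a relative of Syncrip, stood at 118, 102 and 124 CPM in ethanol_US, 118, 88.03 and 105 in CsA_US, 181, 168 and 181 in ethanol_PI, 125 and 148 in CsA_PI 1 and 3, and 98.6 in CsA_PI 2, and it rose by 0.63 ± 0.18 log2. The ethanol_PI libraries of both genes lay above all others. Hnrnpul1, a relative of Hnrnpu, stood at 40.4, 56.3 and 32.7 CPM in ethanol_US, 46.4, 70.03 and 55.3 in CsA_US, 40.5, 32.1 and 38.2 in ethanol_PI, 63.5 and 54.3 in CsA_PI 1 and 3, and 55.7 in CsA_PI 2, with -0.22 ± 0.22 log2 and no call, and Hnrnpul2 (5.30 to 22.1 CPM) had 0.30 log2 and no call.

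The promoters of the 3 genes with the largest rises are shown as RefSeq on GRCm38.p6 gives them, 250 bases upstream of the start, on the minus strand of the chromosome. The capitals mark the ETS motif CCGGAA on either strand. The windows are chr11:51606882-51607131 for Hnrnpab, chr1:178337816-178338065 for Hnrnpu and chr17:80207306-80207555 for Srsf7.
Hnrnpab promoter: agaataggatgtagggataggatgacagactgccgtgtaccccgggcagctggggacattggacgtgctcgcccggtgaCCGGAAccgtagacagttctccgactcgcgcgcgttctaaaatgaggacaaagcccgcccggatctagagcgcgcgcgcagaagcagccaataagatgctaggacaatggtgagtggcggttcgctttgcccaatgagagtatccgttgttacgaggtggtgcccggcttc
Hnrnpu promoter: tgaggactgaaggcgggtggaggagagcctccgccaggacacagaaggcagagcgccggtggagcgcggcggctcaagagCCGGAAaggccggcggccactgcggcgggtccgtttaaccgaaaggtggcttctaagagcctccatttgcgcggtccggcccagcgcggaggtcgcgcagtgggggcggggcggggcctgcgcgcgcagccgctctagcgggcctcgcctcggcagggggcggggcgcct
Srsf7 promoter: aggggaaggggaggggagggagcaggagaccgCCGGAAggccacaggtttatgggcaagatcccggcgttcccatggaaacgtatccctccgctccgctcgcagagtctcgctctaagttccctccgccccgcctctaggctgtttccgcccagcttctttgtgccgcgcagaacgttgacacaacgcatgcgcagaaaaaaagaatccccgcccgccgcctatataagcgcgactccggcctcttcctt
The motifs were searched on both strands of the windows from 250 bases before to 50 after each start. CCGGAA stood in 17 of 41 windows of these genes (41.5%) and in 14.9% of all 32851 windows. The E-box CACGTG stood in 5 (12.2%) against 7.15% of all, the AP-1 motif TGANTCA in 1 (2.44%) against 7.81%, and the NFAT core GGAAA in 18 (43.9%) against 61.3%. A window with CCGGAAA holds both CCGGAA and GGAAA. Of the 31 genes 29 had a window, some of them more than 1. By gene, CCGGAA stood in 12 of the 29, the E-box in 5, the AP-1 motif in 1 and the NFAT core in 15. No share was computed for windows of expressed genes alone, and a match is a description of letters, not of binding.

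In stimulated cells, CsA was set against vehicle, which asks how the drug alters the stimulated levels. With CsA, 12 of 31 genes (38.7%) were lower and 1 was higher, against 12.7% lower and 10.3% higher over all genes. The 12 were Srsf1, Srsf2, Srsf6, Srsf7, Srsf10, Srsf11, Hnrnpa1, Hnrnpab, Hnrnpc, Hnrnpdl, Hnrnpll and Hnrnpm, and all of them had risen in vehicle cells. Both comparisons use the same ethanol_PI libraries. The median log2 fold change was -0.51 over the 31 genes and 0.06 over all genes. Without CsA_PI 2, 9 genes were lower and 2 higher, against 12.1% lower and 10.4% higher over all genes. The median was then -0.33. Hnrnpab, Hnrnpc (-0.46 ± 0.16), Hnrnpm (-0.39 ± 0.16) and Srsf1 (-0.56 ± 0.22) were no longer called, while Hnrnpu (-1.04 ± 0.32, edgeR adjusted p = 0.0363) and Hnrnpul1 (0.71 ± 0.23, edgeR adjusted p = 0.0430) were. With library totals, which set the median of all genes at 0.40, 8 of the 31 genes were lower and 2 higher. Of all 14398 genes 1193 were lower and 2870 higher on that scale. No called gene of the 31 changed sign.

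Hnrnpab had the largest difference, -1.97 ± 0.55 (SE, edgeR adjusted p = 0.0253), and it was -1.51 log2 (edgeR adjusted p = 0.0508) without CsA_PI 2. Srsf2 fell by 1.29 on the log2 scale (SE 0.25), Srsf10 by 1.23, Srsf7 by 1.19 and Hnrnpll by 1.15. For Hnrnpll all 3 CsA_PI libraries lay in or just below the ethanol_US range, and its fold change without CsA_PI 2 was -1.14 log2 (edgeR adjusted p = 0.000568). The remaining called falls were those of Hnrnpa1 (-1.07 ± 0.20), Srsf6 (-0.97 ± 0.17), Srsf1 (-0.87 ± 0.27), Hnrnpc (-0.79 ± 0.26), Srsf11 (-0.74 ± 0.15), Hnrnpm (-0.60 ± 0.19) and Hnrnpdl (-0.52 ± 0.15), each as log2 fold change ± SE. These falls include CsA_PI 2. Without it the median over the 11 SR genes was -0.56 log2 and the lowest -1.06, against -0.74 and -1.29 with it. The median over the 20 hnRNP genes was -0.24 without it and -0.50 with it. Srsf12 was higher with CsA, at 2.08 ± 0.56 (SE, edgeR adjusted p = 0.0182).

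Of the 22 genes that had risen in vehicle cells, 10 had no call for CsA (13 without CsA_PI 2). Hnrnpa2b1 stood at -0.49 ± 0.27 log2 with all libraries and at -0.15 ± 0.15 without CsA_PI 2. Srsf3 stood at -0.12 ± 0.22 and 0.07 ± 0.22, Srsf9 at -0.39 ± 0.37 and 0.02 ± 0.26, and Hnrnph2 at -0.44 ± 0.24 and -0.14 ± 0.16 in the same order. A value without a call does not show that CsA left a gene at its vehicle level. With the replicate number as a block, Hnrnpf (-0.52 log2), Hnrnpk (-0.63), Hnrnpr (-0.53) and Hnrnpu (-1.72) were called as well, all lower with CsA. Leaving out ethanol_PI 1 or ethanol_PI 3 left 7 genes called.

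**Figure D2:**
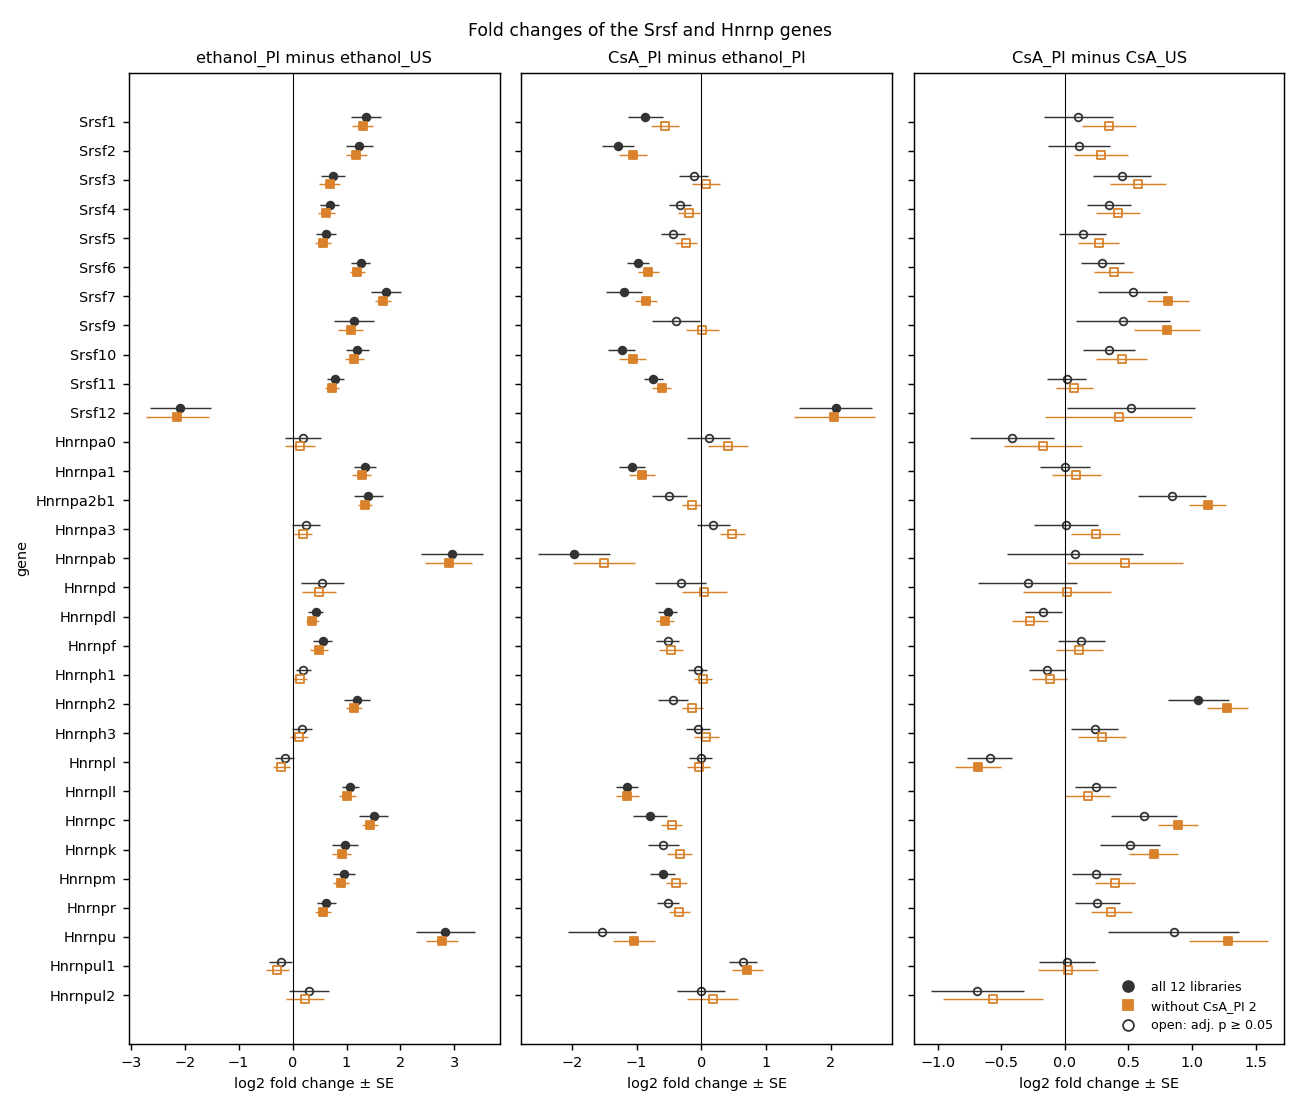
Log2 fold change (points) and SE (bars) of the 31 genes for stimulation in vehicle cells, CsA in stimulated cells and stimulation in CsA cells, with all 12 libraries (circles) and without CsA_PI 2 (squares); filled symbols have an adjusted p under 0.05. The left panel is filled for 23 genes in both fits, and in the right panel 1 circle and 8 squares are filled.

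Without a stimulus CsA changed none of the 31 genes by edgeR, with 3 at an unadjusted p under 0.05 and 0 called by DESeq2, and 0.00695% of all genes were called. Without CsA_PI 2 the count was also 0 by edgeR, with 5 at an unadjusted p under 0.05, when 0.0465% of all genes were called. With all 12 libraries their log2 fold changes ran from -0.52 to 0.98 with a median of 0.07.

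Stimulation under CsA was called for 1 gene with all 12 libraries, Hnrnph2, which rose by 1.05 ± 0.24 log2, when 3.9% of all genes rose. Hnrnph2 lost its call when any one library other than ethanol_US 2 or CsA_PI 2 was left out. Without CsA_PI 2, 7 of the 31 genes rose and 1 fell, when 14.1% of all genes rose and 14.6% fell. The 7 were Hnrnph2 (1.28 ± 0.16), Hnrnpu (1.28 ± 0.31), Hnrnpa2b1 (1.12 ± 0.15), Hnrnpc (0.89 ± 0.16), Srsf7 (0.81 ± 0.16), Srsf9 (0.80 ± 0.26) and Hnrnpk (0.70 ± 0.19). Hnrnpl fell by 0.68 on the log2 scale, its CsA_PI 1 and 3 levels being 91.9 and 86.7 CPM against 111, 172 and 142 in CsA_US. With library totals Hnrnph2 had no call either.

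Whether stimulation acted differently under CsA was tested by the interaction term. A negative value means a lower log2 fold change of stimulation under CsA than in vehicle cells. For Srsf12, which fell in vehicle cells, a positive value means a smaller fall, none or a rise. The term was lower for 5 genes (16.1%, against 6.19% of all genes) and higher for 1 (3.54% of all genes). Lower were Hnrnpab (-2.87 ± 0.77, edgeR adjusted p = 0.0398), Hnrnpa1 (-1.34 ± 0.28), Srsf6 (-0.97 ± 0.24), Hnrnpll (-0.83 ± 0.23) and Srsf11 (-0.78 ± 0.22), and Srsf12 was higher (2.60 ± 0.75). Without CsA_PI 2, 8 genes were lower (7.31% of all genes): the same 5 with Hnrnpdl, Hnrnpu and Srsf7, and Srsf12 had no call (edgeR adjusted p = 0.0585). Leaving out single libraries gave 1 to 8 calls, the lowest without ethanol_US 1, CsA_US 3 or ethanol_PI 1 and the highest without CsA_PI 2. Of the 6 genes, Hnrnpa1 alone kept its call in every alternative run. With the replicate block 11 genes were called, by DESeq2 12, and with library totals 3 (Hnrnpab, Hnrnpa1 and Srsf12).

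The tables list 74 transcripts of the 11 Srsf genes: 28 coding, 12 of the NMD class, 22 with a retained intron and 12 processed transcripts without a reading frame, by the GENCODE M21 classes. Of the 64 tested, 13 rose and 4 fell upon stimulation in vehicle cells, when 8.52% of all transcripts rose and 8.76% fell. Of 24 coding transcripts tested 10 rose and 2 fell, and of 40 non-coding ones 3 rose and 2 fell. The non-coding counts are near or below the shares of all transcripts. Shares over all coding or all non-coding transcripts are not given, so whether the contrast is particular to Srsf genes was not tested. With the replicate block 11 were called (8 higher and 3 lower): Srsf1-202, Srsf2-206, Srsf3-205, Srsf4-202, Srsf5-203, Srsf5-212 and Srsf11-206 lost their calls, at edgeR adjusted p from 0.0522 to 0.0781, and Srsf10-203 gained one. Of the 17 transcripts, Srsf1-201, Srsf2-201, Srsf2-205, Srsf6-201, Srsf7-201 and Srsf10-204 kept their calls in every alternative run. Leaving out ethanol_US 1 left 7 and leaving out CsA_PI 2 gave 20. With CsA in stimulated cells 5 transcripts were lower (3.82% of all transcripts) and 1 was higher (2.97%), and the same transcripts were called without CsA_PI 2. By edgeR none was called for CsA without stimulus (1 at an unadjusted p under 0.05), for stimulation under CsA (9) or for the interaction (14), and DESeq2 was not run on transcripts. Without CsA_PI 2, stimulation under CsA raised 6 transcripts and lowered 1, when 4.44% of all transcripts rose and 4.42% fell. The other comparisons still had no call by edgeR, with 2 transcripts at an unadjusted p under 0.05 for CsA without stimulus and 11 for the interaction.

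Srsf6 stood out by its NMD transcript. Srsf6-201, which includes the poison exon shown above, had 142, 166 and 165 TPM in ethanol_US, 169.8, 138 and 134 in CsA_US, 389, 392 and 339.9 in ethanol_PI, 197 and 233 in CsA_PI 1 and 3, and 172 in CsA_PI 2. Its log2 fold change in vehicle cells was 1.65 ± 0.19 (SE, edgeR adjusted p = 0.000438), and with CsA in stimulated cells -1.06 ± 0.19 (SE, edgeR adjusted p = 0.00734). The coding transcript Srsf6-203, which skips that exon, had 86.8, 77.6 and 63.1 TPM in ethanol_US, 86.7, 56.02 and 70.3 in CsA_US, 59.2, 74.3 and 69.3 in ethanol_PI, 43.4 and 50.5 in CsA_PI 1 and 3, and 71.7 in CsA_PI 2, and its log2 fold change was 0.23 ± 0.18 (SE, edgeR adjusted p = 0.425). TPM values are not TMM-scaled and the fold changes are, so small changes can differ in direction between them, as here. On the CPM scale the coding counts of Srsf6 were 187, 176 and 139 in ethanol_US and 209.6, 234 and 222 in ethanol_PI, and the non-coding counts 138, 171 and 164 and 619, 556 and 496. Most of the rise of the gene lay in counts assigned to the transcript with the early stop. The transcripts also differ at their ends: Srsf6-201 ends at position 162935026 and Srsf6-203 at 162937121, and Srsf6-201 has 103 bases outside the listed coding transcripts. The split between them is an estimate by kallisto.

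For Srsf2 and Srsf5 coding transcripts rose and their most abundant non-coding ones did not. Srsf2-201, the main coding transcript, had 258, 241 and 325 TPM in ethanol_US, 293, 204 and 254 in CsA_US, 620.4, 577 and 635 in ethanol_PI, 302 and 336 in CsA_PI 1 and 3, and 222 in CsA_PI 2, and in vehicle cells it rose by 1.56 ± 0.22 (SE, edgeR adjusted p = 0.00119) log2. The NMD transcript Srsf2-204, which lies wholly within bases of coding transcripts, had 416, 127 and 501 and 91.2, 149 and 190.4 TPM in ethanol_US and ethanol_PI, without a call (-0.87 ± 0.46, edgeR adjusted p = 0.232). The retained intron transcript Srsf2-203 had 86.2, 59.2 and 139 and 65.7, 60.4 and 87.2 TPM in these groups, also without a call. Srsf2-205, a short processed transcript, was called lower: it had 29.3, 16.2 and 36.5 TPM in ethanol_US and was listed at 0, 0 and 1.26 in ethanol_PI.

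For Srsf5 the transcript with the intron shown above, Srsf5-212, had 70.5, 41.98 and 50.5 TPM in ethanol_US, 57.4, 33.01 and 39.4 in CsA_US, 13.6, 14.2 and 19.04 in ethanol_PI, 10.2 and 18.1 in CsA_PI 1 and 3, and 42.7 in CsA_PI 2. It fell in vehicle cells, the log2 value being -1.40 ± 0.38 (SE, edgeR adjusted p = 0.0312), and had no call with the replicate block (edgeR adjusted p = 0.0607). CsA_PI 2 lay with the unstimulated libraries, and CsA_PI 1 and 3 lay near the ethanol_PI libraries. The coding transcripts Srsf5-202 (0.96 ± 0.21, edgeR adjusted p = 0.0109) and Srsf5-203 (1.58 ± 0.46, edgeR adjusted p = 0.0396) rose, while the coding Srsf5-201, with 174, 172 and 122 and 117, 87.02 and 155 TPM, had no call. Srsf5-201 has 20 bases outside the other coding transcripts, and Srsf5-202 and Srsf5-203 have none, so the split among them is uncertain.

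**Figure D3:**
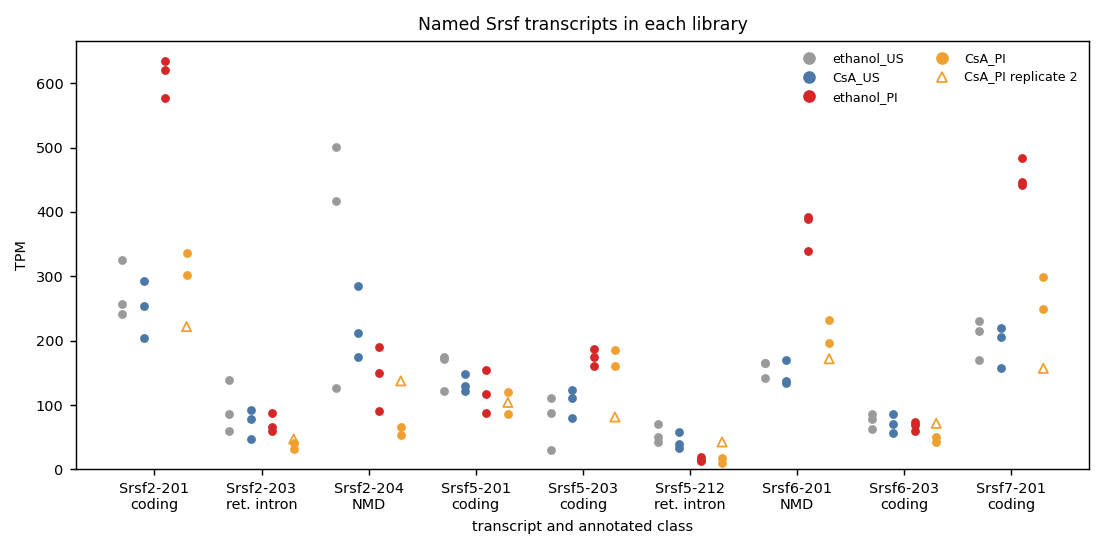
TPM of 9 transcripts of Srsf2, Srsf5, Srsf6 and Srsf7 in each of the 12 libraries, with the annotated class under each name; each point is 1 library, coloured by group, and CsA_PI 2 is an open triangle. The NMD transcript Srsf6-201 stands at 340 to 392 TPM in ethanol_PI and at 142 to 166 in ethanol_US, while the coding Srsf6-203 overlaps between these groups.

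Other Srsf transcripts were called in vehicle cells. The coding transcripts Srsf1-201 (1.70 ± 0.30, edgeR adjusted p = 0.00388), Srsf11-202 (0.59 ± 0.17, edgeR adjusted p = 0.0353) and Srsf4-202 (0.53 ± 0.15, edgeR adjusted p = 0.0366) rose. Srsf1-202 was listed at 0 in all ethanol_US libraries and at 4.34, 2.28 and 1.03 TPM in ethanol_PI. Srsf7-201, the only one of 8 annotated Srsf7 transcripts in the tables, rose by 1.56 ± 0.26 (SE, edgeR adjusted p = 0.00275), and a poison exon of Srsf7 was not analysed here. Srsf10-204 had 27.6, 28.99 and 44.8 TPM in ethanol_US and 69.3, 99.1 and 98.5 in ethanol_PI, while Srsf10-202, which differs from it by 3 bases, had 25.4, 11.8 and 3.53 and 0.000124, 0.595 and 0.198. Both were called, in opposite directions, and the split of counts between transcripts this alike is uncertain. The coding Srsf2-206 and the NMD transcript Srsf11-206 also rose, and Srsf12-201 fell. Of the other transcripts with over 10% of their gene's counts, Srsf1-205, Srsf3-204, Srsf9-201, Srsf9-202, Srsf10-201 and Srsf10-205 had no call with all 12 libraries, and Srsf12-202 was too low to test. Without CsA_PI 2, Srsf3-202, Srsf9-201 and the retained intron transcript Srsf11-213 rose as well. With CsA in stimulated cells Srsf2-201 (-1.24 ± 0.22, edgeR adjusted p = 0.00685), Srsf7-201 (-1.10 ± 0.25, edgeR adjusted p = 0.0266), Srsf10-204 (-1.34 ± 0.24, edgeR adjusted p = 0.00749) and Srsf11-202 (-0.89 ± 0.17, edgeR adjusted p = 0.0101) were lower besides Srsf6-201, and Srsf2-205 was higher. Stimulation under CsA without CsA_PI 2 raised Srsf3-202, Srsf6-201, Srsf7-201, Srsf10-204, Srsf11-203 and Srsf11-208 and lowered Srsf5-212.

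Srsf3 was mostly non-coding in every library, at 87.8 to 93.9% of its counts. Srsf3-201, with the poison exon shown above, had 78.3, 132 and 78.4 TPM in ethanol_US and 80.2, 92.4 and 88.4 in ethanol_PI and no call. The retained intron transcript Srsf3-205 had 95.3, 165 and 101 and 203, 229 and 154 TPM and rose by 1.09 ± 0.32 (SE, edgeR adjusted p = 0.0388). The tables hold Srsf3-201 at 1919 bases and Srsf3-205 at 910 bases, where GENCODE M21 gives 2594 and 2110, and 5 of 10 annotated Srsf3 transcripts, so these shares depend on the transcript set used.

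The share of a gene's counts on non-coding transcripts was tested for genes with at least 10 counts of each class in 3 or more libraries, which held for 20 of the 31 genes and 5201 genes in all. In vehicle cells stimulation changed the share of none of the 20 by edgeR with all 12 libraries (0.558% of all genes were called), although 4 had an unadjusted p under 0.05. Without CsA_PI 2 the share of 3 genes changed, Srsf6 upward and Srsf2 and Srsf5 downward, when 1.52% of all genes were called. Over all protein-coding genes the share was 9.59% to 10.1% in each library.

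For Srsf6 the share was 42.5, 49.2 and 54.1% in ethanol_US, 46.4, 53.04 and 46.3% in CsA_US, 74.7, 70.3 and 69.04% in ethanol_PI, 67.4% and 67.6% in CsA_PI 1 and 3, and 51.7% in CsA_PI 2. The log2 odds ratio for stimulation in vehicle cells was 1.40 ± 0.29 (SE), with an edgeR adjusted p of 0.0632, and 0.0175 without CsA_PI 2. All ethanol_PI libraries lay above all unstimulated ones, and CsA_PI 1 and 3 lay just below ethanol_PI. For Srsf2 the share was 42.1, 27.1 and 44.4% in ethanol_US, 30.9, 30.3 and 38.98% in CsA_US, 11.96, 13.99 and 16.9% in ethanol_PI, 13.9% and 13.6% in CsA_PI 1 and 3, and 27.02% in CsA_PI 2, with a log2 odds ratio of -1.87 ± 0.39 (SE) and an edgeR adjusted p of 0.0627 (0.0184 without CsA_PI 2). For Srsf5 it was 43.1, 31.2 and 35.1% in ethanol_US, 33.4, 26.9 and 30.2% in CsA_US, 19.6, 19.2 and 20.5% in ethanol_PI, 18.2% and 21.1% in CsA_PI 1 and 3, and 36.5% in CsA_PI 2, with -1.21 ± 0.33 (SE) and 0.125 (0.0312 without CsA_PI 2). In all 3 genes CsA_PI 1 and 3 sat near the ethanol_PI libraries and CsA_PI 2 near the unstimulated ones, whereas the gene levels of Srsf2 and Srsf6 in CsA_PI 1 and 3 lay well below ethanol_PI. Srsf10, the other gene with an unadjusted p under 0.05, differed (log2 odds ratio -1.03 ± 0.36, edgeR adjusted p = 0.215). Its share was 28.8, 32.01 and 21.6% in ethanol_US, 28.8, 31.6 and 16.3% in CsA_US, and 18.8, 14.2 and 13.96% in ethanol_PI. CsA_PI 1 and 3, at 21.8% and 19.2%, lay above ethanol_PI and in the unstimulated range, as did CsA_PI 2 at 27.96%. No share was called for CsA in stimulated cells by edgeR, with 1 of the 20 at an unadjusted p under 0.05 (also 1 without CsA_PI 2). For stimulation under CsA edgeR called none of the 20 either, with 7 at an unadjusted p under 0.05. Without CsA_PI 2 none was called, with 8 at an unadjusted p under 0.05, when 0.681% of all genes were called. The lowest edgeR adjusted p was then 0.0539, for Srsf2. A missing call does not show that the shares were alike.

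**Figure D4:**
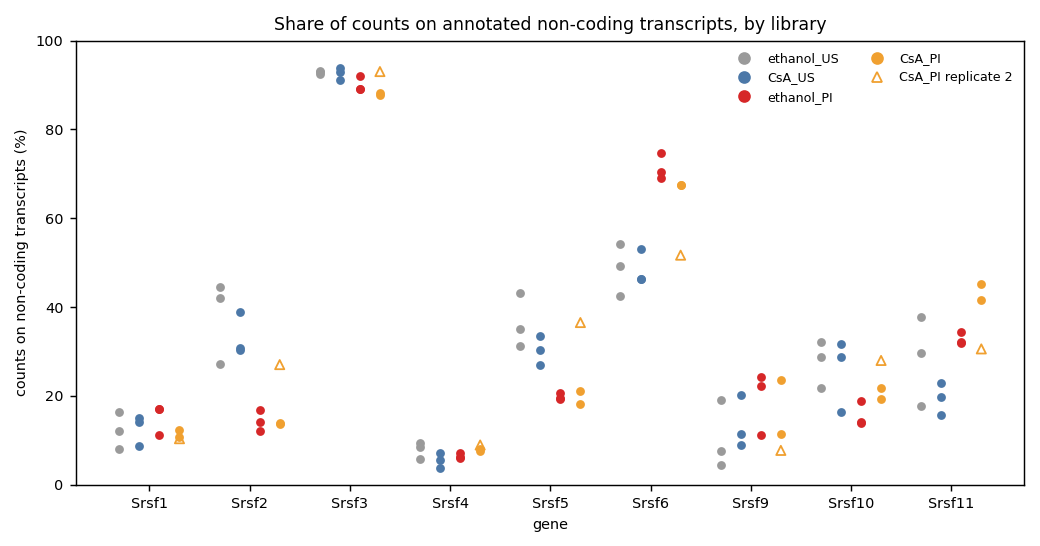
Percent of the counts of each of 9 Srsf genes on transcripts annotated as non-coding (NMD, retained intron or processed), in each of the 12 libraries; each point is 1 library, coloured by group, and CsA_PI 2 is an open triangle. Srsf2 and Srsf5 are lower and Srsf6 is higher in ethanol_PI than in ethanol_US, and the triangles of these genes lie with the unstimulated libraries.

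The genes around these families were counted from 5 lists in the same fit, and values are log2 fold changes ± SE. The shares over all genes tested stand above: 20.1% rose and 19.7% fell in vehicle cells (20.8% and 22.9% without CsA_PI 2), and with CsA in stimulated cells 12.7% were lower and 10.3% higher (12.1% and 10.4%). Of 26 core spliceosome genes 17 (65.4%) rose and none fell in vehicle cells (17 and 1 without CsA_PI 2), with a median of 0.84 log2 against -0.02 over all genes. Snrpd1, a core snRNP ring protein, rose by 2.26 ± 0.38 log2, and Snrpa1, a U2 snRNP protein, by 1.88 ± 0.26. With CsA in stimulated cells 9 (34.6%) were lower and 1 was higher (7 and 1 without CsA_PI 2). Snrpa1 stood at -1.44 ± 0.26, Snrpd2 at -1.15 ± 0.20 and Prpf6, the higher one, at 0.51 ± 0.15.

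Of 18 SR-like factors 12 (66.7%) rose and none fell in vehicle cells, with and without CsA_PI 2, with a median of 0.65 log2. Tra2a, a splicing activator with its own poison exon, rose by 2.19 ± 0.34 and the 3′ splice site factor U2af1 by 1.41 ± 0.31. With CsA in stimulated cells 7 (38.9%) were lower and none higher, with and without CsA_PI 2. Tra2a stood at -0.99 ± 0.33 and U2af1 at -0.98 ± 0.31 with all 12 libraries, the largest called falls. Without CsA_PI 2 the largest called falls were instead those of Luc7l (-0.79 ± 0.17) and Tra2b (-0.61 ± 0.18).

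Of 21 hnRNP proteins with other symbols and related regulators, 12 (57.1%) rose and 2 (9.52%) fell in vehicle cells (13 and 2 without CsA_PI 2), with a median of 0.60 log2. Syncrip, a relative of Hnrnpr, rose by 2.06 ± 0.22 and Pcbp1, which binds C-rich RNA, by 1.61 ± 0.34, while Tia1 (-1.29 ± 0.20) and the cold-inducible Cirbp (-0.51 ± 0.18) fell. With CsA 6 (28.6%) were lower and 2 higher (6 and 3 without CsA_PI 2). Syncrip (-1.47 ± 0.22) and Tardbp (-0.89 ± 0.17) were the lowest, and Tia1 (1.14 ± 0.20) and Celf2 (0.78 ± 0.20) were higher. Without CsA_PI 2 the lowest were Syncrip (-1.19 ± 0.15) and Mbnl2 (-0.74 ± 0.15).

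Of the 12 SR protein kinases, phosphatases and import factors 3 (25%) were higher and 3 (25%) lower in vehicle cells, with and without CsA_PI 2, which is near the shares of all genes, and the median was 0.19 log2. Tnpo3, the importin of SR proteins, rose by 1.09 ± 0.20 and the kinase Prpf4b by 1.06 ± 0.19, while the phosphatase subunit Ppp1ca (-1.25 ± 0.19) and the kinase Srpk2 (-0.90 ± 0.22) fell. With CsA 3 were lower and 1 higher, also without CsA_PI 2, among them Tnpo3 (-0.77 ± 0.20) and Srpk1 (-0.66 ± 0.17), with Ppp1ca as the higher one (0.84 ± 0.19). Of 10 NMD factors 4 (40%) rose and 1 (10%) fell in vehicle cells (3 and 3 without CsA_PI 2), with a median of 0.26 log2. Upf1, the central helicase of the pathway, rose by 1.23 ± 0.41 and Upf3b fell (-0.86 ± 0.28). CsA in stimulated cells called no NMD factor by edgeR, with 0 at an unadjusted p under 0.05 and 0 by DESeq2, and without CsA_PI 2 edgeR also called none, with 0 at an unadjusted p under 0.05.

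These list counts move with the scale as well, and so do those over all genes. Of all 14398 genes, 1580 rose and 5437 fell for stimulation in vehicle cells with library totals. For CsA in stimulated cells 2870 were higher and 1193 lower. With library totals, stimulation in vehicle cells raised 7 and lowered 4 core spliceosome genes, raised 5 and lowered 4 SR-like factors, raised 6 and lowered 4 of the other hnRNP proteins, raised 1 and lowered 4 of the kinases and import factors, and raised none and lowered 4 of the NMD factors. For CsA in stimulated cells the higher and lower counts with library totals were 4 and 6 core spliceosome genes, 1 and 3 SR-like factors, 3 and 4 other hnRNP proteins, 2 and 0 kinases and import factors, and 1 and 0 NMD factors. None of the genes named from the lists with all 12 libraries changed sign on that scale, but some lost their calls. For stimulation in vehicle cells these were Tnpo3 (edgeR adjusted p = 0.0659) and Upf1 (edgeR adjusted p = 0.207). For CsA in stimulated cells they were Srpk1, Tnpo3, Tra2a and U2af1, at edgeR adjusted p from 0.0615 to 0.268.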

How the data were processed

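RNA of 12 libraries was profiled by Clontech SMART-seq, per the labels' protocols. The submitters' processing notes name cutadapt (adapter trimming), kallisto (estimated counts) and mm10. Tool versions and the transcript set are not given in the sources used here. Per the file headers, the deposited tables hold an estimated count for each of 109617 transcripts, not scaled for depth, and TPM, scaled by the authors' run for length and depth. They also hold transcript lengths, and the effective lengths are the same in all tables. Totals were 10523816 to 18468044 estimated counts, and a floor of 3 counts is 0.162 to 0.285 CPM.

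By identifier, 108214 transcripts matched GENCODE M21 and 1403 did not, which held 0.494% to 0.628% of counts. Of the 221 transcripts of the 31 genes, 207 had the annotated length. Counts were summed by gene and rounded to whole numbers. kallisto shares reads between alike transcripts, so genes with near-identical copies, such as the Hnrnp genes with processed pseudogenes, are uncertain. The tests used edgeR 4.0.16 in R 4.3.3 with TMM scaling, the expression filter (minimum count 10, minimum total 15) and a robust quasi-likelihood fit of all 4 groups. Transcripts were fitted likewise. The share fit had coding and non-coding counts of each library with library terms. The SE was taken from the quasi-likelihood F, as |log2 fold change| over its root. A call was a Benjamini-Hochberg adjusted p under 0.05 over all features. The scripts were tested on simulated data.

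Equally numbered libraries deviated together: correlations were 0.0333 to 0.325 over 18 pairs, 17 of them over 0.1 and all 18 highest for the own number, which met the criterion for pairing by number except between CsA_US and CsA_PI, where the lowest value lies. The fit reported has no replicate term, and a fit with the replicate number as a block was run as an alternative. The labels do not say what the numbers share. The alternatives were RLE scaling, library totals, no filter, DESeq2 1.42.0, the replicate block, only the groups compared, each library left out, and for shares a minimum of 50 counts, NMD or retained intron transcripts only. Per-library values were given for genes with a call in any comparison and for the 3 highest of each family by TPM, and transcripts were named when called or above 10% of their gene's counts. The members and lists were chosen with earlier results of these data known.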

Additional observations from a re-analysis of the deposited data

Results flagged for a closer look

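The effect of stimulation differed between CsA-treated and vehicle-treated cells for 6 of the 31 genes, by the interaction term of the edgeR fit with Benjamini-Hochberg adjustment over all genes. Of all genes 9.72% were called. The difference (effect under CsA minus effect in vehicle, log2) was -2.87 for Hnrnpab, -1.34 for Hnrnpa1, -0.97 for Srsf6, -0.83 for Hnrnpll, -0.78 for Srsf11 and 2.60 for Srsf12. The adjusted p was 0.0107 for Hnrnpa1, 0.0244 for Srsf6, and 0.0398 to 0.0470 for the other 4. Without CsA_PI 2 the call of Srsf12 was lost and the other 5 remained. Without ethanol_US 1, CsA_US 3 or ethanol_PI 1, and with no filter on low counts, Hnrnpa1 alone of the 6 was called, and with library totals Hnrnpa1, Hnrnpab and Srsf12 were. Hnrnpa1 was called in every alternative run.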

How the results depend on the processing

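Calls and directions of the named genes, transcripts and shares held in 918 of the 1184 alternative values computed, 256 lost the call, 7 gained one and 3 changed sign; the cause was not tested. Changed signs were those of Hnrnpdl (-0.18 log2) and Hnrnpf (-0.056) for stimulation in vehicle cells with library totals, and of the Srsf5 share with NMD transcripts only (log2 odds ratio 0.24). With library totals, 15 genes were called for stimulation in vehicle cells, 0 for stimulation under CsA and 3 for the interaction. Of all genes 48.7%, 0.0347% and 10.3% were called on that scale, in the same order. DESeq2 called 3 genes for stimulation under CsA and 12 for the interaction, and a fit of only the groups compared called 0 for stimulation under CsA. With the replicate number as a block, 11 genes were called for the interaction and 11 transcripts for stimulation in vehicle cells; no filter on low counts also gave 11 transcripts. The block changed no other count by more than 1.5 times. For the non-coding share in vehicle cells, a minimum of 50 counts gave 2 calls and retained intron transcripts only gave 1. Leaving out each library in turn gave 16 to 23 genes for stimulation in vehicle cells, 7 to 13 for CsA in stimulated cells, 0 to 8 for stimulation under CsA and 1 to 8 for the interaction. For transcripts it gave 7 to 20 for stimulation in vehicle cells, 4 to 7 for CsA in stimulated cells, 0 to 7 for stimulation under CsA and 0 to 1 for the interaction, and for shares 0 to 3 for stimulation in vehicle cells. CsA without stimulus gave 0 calls in every alternative. Depth limits Srsf12 (4 to 70 estimated counts) and the short transcripts.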

Other observations

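The hnRNP genes differed widely in how much of their counts lay on transcripts annotated as non-coding. Over all 12 libraries, 78.5% of the counts of Hnrnpu, the scaffold attachment factor, lay on NMD transcripts, and its non-coding share was 78.9, 78.8 and 82.1% in ethanol_US and 84.2, 83.3 and 83.7% in ethanol_PI. The share of Hnrnpu had no call (edgeR adjusted p = 0.339), and most of its counts lay on non-coding transcripts in each of these libraries. Hnrnpll had 65.1% of its counts on NMD transcripts and Hnrnpd 60.2%. Hnrnpk had 32.8% on retained intron transcripts and Hnrnpl 33.7%. Hnrnph1 had 51.5% on processed transcripts. These are shares of counts, not scaled for transcript length. The split between transcripts that share exons is an estimate by kallisto whose uncertainty is not given. No non-coding transcript was listed for Hnrnpa0, Hnrnpa1, Hnrnpa2b1, Hnrnpab, Hnrnpc, Hnrnpf, Hnrnph2, Hnrnpul1 and Hnrnpul2. All their counts therefore lay on coding transcripts, which the transcript set fixed in advance. The tables list 3 of 13 annotated transcripts for Hnrnpa2b1 and 2 of 13 for Hnrnpc.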
